A study of Homo sapiens with 6 samples.

Results

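The baseline expression state of control MCF10A cells was described from 3 samples, of the 6 in the series, chosen by their titles as MCF10A-CV cells carrying a non-targeting shRNA. MCF10A is an established, non-tumorigenic human mammary epithelial line that became immortal without an introduced oncogene. The control cells were stably transfected with a non-targeting shRNA vector, selected with puromycin, and kept as 1 stable clone grown in monolayer, so they stand for that clone and not for the parental line or for breast tissue. The 3 samples were taken at different passages of the clone, per the study's design text, so the SDs measure the spread between passages and not between clones. The culture medium, MEBM, held hydrocortisone at 5 ug/ml, insulin at 10 ug/ml, human EGF at 20 ng/ml, bovine pituitary extract and antibiotics, and RNA was taken at 70% confluence. Each sample's cDNA, labelled with biotin, was read on an array with 1 colour, and 19775 genes could be described. No comparison with other cells was made, and no test was run.

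The mammary gland is lined by a bilayered epithelium. Its outer, basal layer rests on the basement membrane, carries keratins 5 and 14, integrins and contractile proteins, and includes the myoepithelial cells that eject milk. Its inner, luminal layer carries keratins 8 and 18 and holds the cells that respond to oestrogen and progesterone and those that make milk. Type I and type II keratins pair to form the intermediate filaments of epithelial cells, and cells of this kind need ligands of the epidermal growth factor receptor in culture.

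Signals are given on the log2 scale of the deposited arrays as the mean ± SD of the 3 control samples (n = 3 throughout), and the percentile of a gene is the percentage of the 54613 non-control probe sets with a lower mean. Each gene was represented by its probe set with the highest mean. Probe sets bind their targets with different strength, so a percentile gives the place of a signal in the distribution of the array and does not order the amounts of different transcripts. Genes of olfactory receptors, which serve mainly in olfactory neurons, were used as a background. The 102 measured were chosen by symbol, and not all of them are protein-coding. Their signals ran from 0.97 to 7.39 with a median of 1.65, and their 95th percentile, 2.99, was taken as the background cut. By this rule 11957 of 19775 genes (60.5%) lay above the cut, 11522 of them in each of the 3 samples. The cut, being the 95th percentile of the olfactory receptor genes, was passed by 6 of them by construction. A signal above it says little by itself, since olfactory receptor signals ran up to 7.39. Another level, 5.87, where the top 25% of all probe sets begin, was passed by 7007 genes (35.4%), among them 1 olfactory receptor gene. The median gene had a signal of 4.02 and a percentile of 60.5, and each count of list members is to be read against these shares. A signal that was not above the cut could not be told from background on this array, which does not show that the transcript was absent.

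The 3 samples had medians of 3.05, 3.05 and 3.06 and correlated with each other at r = 0.9947 to 0.995 across probe sets, which are not independent replicates. RMA in its usual form forces arrays to 1 distribution, so near-equal medians do not show that the samples were alike. The added hybridisation controls were highest in sample 1 for all 4 spikes, for example bioB at 9.61, 8.99 and 9.10. The beta-actin 3' minus 5' difference, which grows as RNA is shortened, was 2.33, 2.52 and 2.71, while that of GAPDH was -0.08, -0.10 and -0.08. Their part in the spread between samples was not tested. FRY, the target of the shRNA used elsewhere in the series, gave signals of 4.87, 5.12 and 5.54 in the 3 control samples (5.18 ± 0.34, percentile 69.9), and its 4 probe sets had means from 3.11 to 5.18.

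Control MCF10A cells gave signals in the top 25% of probe sets for genes of basal and luminal keratins, E-cadherin, vimentin and the EGF receptor. Of the 8 genes taken as markers of the line, 7 were measured, and all 7 lay in the top 25%, with a median percentile of 96.5. TP63 was not analysed here. The basal keratin gene KRT5 had signals of 11.49, 11.39 and 11.54 (11.47 ± 0.07, percentile 99.3), and KRT14, which encodes its basal partner, had 8.0, 7.72 and 7.96 (7.89 ± 0.16, percentile 88.6). Both stayed within 0.3 of themselves across the samples. The luminal keratin gene KRT8 was measured at 9.83, 9.61 and 9.79 (9.74 ± 0.11, percentile 96.5), and its partner KRT18 at 10.69, 10.44 and 10.57 (10.57 ± 0.12, percentile 98.3). Each of these luminal keratin genes was measured by 1 probe set of the _x_at kind, whose probes can bind related sequences, so their signals are uncertain and neither gene is measured when such probe sets are left out. Sample 2 was the lowest of the 3 for each of these 4 keratin genes. CDH1, which encodes E-cadherin of the adherens junction, had 10.89, 11.02 and 11.08 (SD 0.10, percentile 98.8), and its other probe set had a mean of 8.08. VIM, which encodes the mesenchymal intermediate filament protein vimentin, had 9.63, 9.58 and 9.42 (9.54 ± 0.11, percentile 95.9) at 1 probe set, but the other VIM probe set had a mean of 1.24. EGFR, which encodes the receptor for the growth factor in the medium, had 9.52, 9.72 and 9.42 (9.55 ± 0.15, percentile 96.0). Of its 9 probe sets, 6 lay above the cut and 5 in the top 25%, and the lowest had a mean of 2.02. The luminal side of this marker set rests on KRT8 and KRT18, and in RNA from many cells it cannot be told whether the same cells carried basal and luminal keratins.

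The promoters of KRT5, KRT10 and EGFR, 3 genes with signals in the top 25%, are printed because they differ widely in CpG content. The sequences are RefSeq windows on GRCh38.p14, from 250 bases before to 50 bases after an annotated start, written in the direction of transcription. Capitals mark each CG dinucleotide and each match to TATAAA.
KRT5, chr12:52520345-52520644, minus strand: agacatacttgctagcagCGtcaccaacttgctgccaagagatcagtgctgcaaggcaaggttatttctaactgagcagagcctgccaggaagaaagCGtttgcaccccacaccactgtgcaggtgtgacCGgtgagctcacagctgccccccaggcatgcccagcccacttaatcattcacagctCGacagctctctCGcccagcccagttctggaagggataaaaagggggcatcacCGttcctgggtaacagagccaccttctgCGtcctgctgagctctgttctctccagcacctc
KRT10, chr17:40822565-40822864, minus strand: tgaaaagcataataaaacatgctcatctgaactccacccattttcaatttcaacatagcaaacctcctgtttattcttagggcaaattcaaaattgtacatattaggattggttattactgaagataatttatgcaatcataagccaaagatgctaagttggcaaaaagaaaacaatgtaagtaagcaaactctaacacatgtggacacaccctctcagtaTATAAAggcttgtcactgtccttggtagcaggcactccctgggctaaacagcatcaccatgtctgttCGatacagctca
EGFR, chr7:55018767-55019066, plus strand: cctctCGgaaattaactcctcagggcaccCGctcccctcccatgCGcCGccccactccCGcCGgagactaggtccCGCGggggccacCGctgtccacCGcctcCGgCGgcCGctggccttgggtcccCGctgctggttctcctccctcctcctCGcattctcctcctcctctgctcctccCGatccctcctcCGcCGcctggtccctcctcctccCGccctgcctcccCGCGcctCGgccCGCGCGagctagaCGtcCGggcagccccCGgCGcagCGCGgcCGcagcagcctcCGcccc
The KRT5 window held 7 CpG dinucleotides and that of KRT10 held 1. KRT10 also had TATAAA starting 29 bases before the annotated start. The EGFR window printed held 33 CpG dinucleotides. With counts averaged over the windows of each gene, the median over the 15384 measured genes with an entry was 22.0. A second annotated EGFR start had a window with 1 CpG, so the printed window alone is not compared like for like with that median.

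Of 48 measured genes with symbols starting KRT and a digit, 19 lay above the cut. These were taken by symbol alone and not checked to be protein-coding, and some are in neither the lists nor the clusters below. Of 12 measured type I epithelial keratin genes, 8 lay above the cut and 5 in the top 25%, with a median percentile of 67.1. KRT15, a keratin of basal and progenitor cells, had 12.33, 12.17 and 12.30 (12.27 ± 0.09, percentile 99.8). KRT16, a keratin of wounded and hyperproliferative epithelium, had 9.53, 9.26 and 9.65 (9.48 ± 0.20, percentile 95.7), and KRT10, a keratin of suprabasal epidermis, had 8.99, 8.48 and 8.82 (8.76 ± 0.26), with all 3 of its probe sets above the cut. KRT23 was at 5.05 ± 0.18, below the top 25%. The genes KRT12, KRT13 and KRT20, keratins of the cornea, of mucosal epithelium and of the gut, had means of 1.45, 1.80 and 1.65 and were not above the cut. KRT19, a luminal keratin named here after its value was seen, had a mean of 3.06 (percentile 50.1), next to the cut.

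Of 13 measured type II keratin genes, 5 lay above the cut and 4 in the top 25%, with a median percentile of 36.2. KRT7, a keratin of simple and glandular epithelium, had 12.22, 12.16 and 12.16 (12.18 ± 0.04, percentile 99.7), with all 4 probe sets above the cut. KRT80 had 7.51, 7.09 and 7.25 (7.29 ± 0.21, percentile 84.9), and KRT3, a corneal keratin, was at 4.28 ± 0.21. KRT1 and KRT2 of the differentiated epidermis and KRT4 of the oesophagus had means of 1.97, 1.41 and 2.32, within the background. Of 18 genes for hair and root sheath keratins, 3 lay above the cut and 0 in the top 25%. The highest of these, KRT33A at 4.18 ± 0.21 and KRT72 at 4.16 ± 0.12, were followed by KRT83 at 3.35 ± 0.08.

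The keratin genes lie in 2 clusters, and bright members stood among dim ones in each. In the type II cluster on chromosome 12, KRT80 and KRT7 were neighbours at the start, and KRT8 and KRT18, a type I gene at the edge of this cluster, were neighbours at its end. KRT5 had measured neighbours in the background on both sides, KRT75 and KRT71. The 12 measured genes between KRT5 and KRT8 all stayed below the top 25%. In the type I cluster on chromosome 17, KRT10 and KRT15 stood apart from each other among dim genes, and KRT14 and KRT16 were neighbours.

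**Figure D1:**
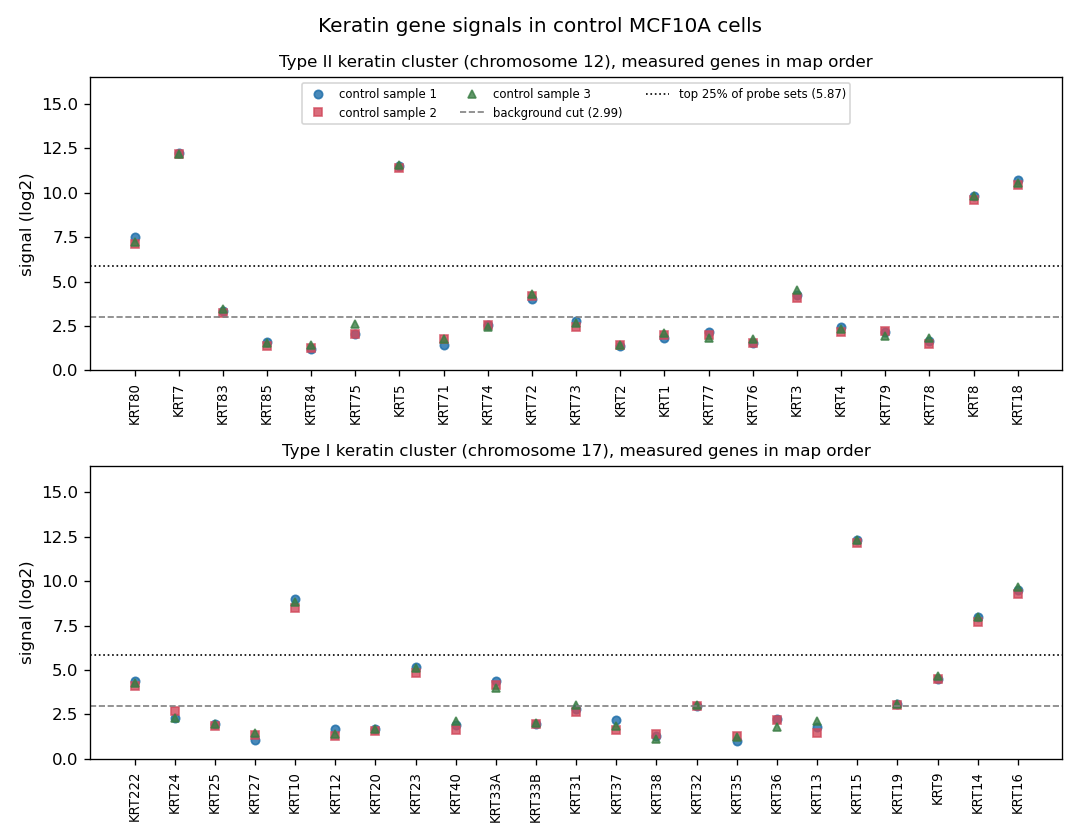
Signal (log2, vertical axis) of each measured keratin gene in the 3 control samples, in map order along the type II cluster on chromosome 12 (top) and the type I cluster on chromosome 17 (bottom). Symbols are samples, the dashed line is the background cut at 2.99 and the dotted line the start of the top 25% of probe sets at 5.87; KRT7, KRT5, KRT8, KRT18, KRT15 and KRT16 stand above 9, and KRT5 lies between KRT75 and KRT71, both under the cut.

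Among the other intermediate filament genes, 6 of 13 lay above the cut and 5 in the top 25%. The nuclear lamin genes LMNA (10.43 ± 0.02), LMNB1 (9.79 ± 0.08) and LMNB2 (7.45 ± 0.04) varied little between samples. SYNM, which encodes the filament linker synemin, was measured at 6.97, 7.47 and 7.18 (7.21 ± 0.25). GFAP, PRPH and NEFL, filament genes of glia and neurons, had means of 1.83, 1.93 and 1.59 and lay in the background, and the muscle gene DES was at 3.52 ± 0.10.

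Basal epithelial genes were bright as a group. All 16 measured of 20 listed lay above the cut and 14 in the top 25%, with a median percentile of 94.5 against 60.5 over all genes. SFN, which encodes the epithelial 14-3-3 protein stratifin, had 12.58, 12.63 and 12.56 (12.59 ± 0.04). CAV1, which encodes caveolin of membrane pits, had 12.10, 12.03 and 11.92 (12.02 ± 0.09). The hemidesmosome integrin gene ITGA6 had 11.29, 11.41 and 11.35 (11.35 ± 0.06), and LAMB3, a chain of the laminin that anchors basal cells, had a mean of 11.12 ± 0.13. The samples lay within 0.3 of each other for each of these 4 genes. The hyaluronan receptor gene CD44 reached 10.75 ± 0.12, with all 13 of its probe sets above the cut, and CAV2 was at 9.55 ± 0.07. Of the 11 basal genes in the top 25% that had several probe sets, 8 had all of them above the cut.

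Genes of the contractile apparatus of myoepithelial cells gave another picture. Of 12 measured, 9 lay above the cut and 2 in the top 25%, with a median percentile of 62.7. The upper ones were TPM2, which encodes a tropomyosin (11.89, 11.80 and 11.97), and CALD1, which encodes the actin regulator caldesmon (9.61, 9.60 and 9.61), both also made outside muscle. MYH11, the smooth muscle myosin heavy chain gene, had 5.67, 5.25 and 4.95, and ACTA2, which encodes smooth muscle actin, had 4.81, 4.54 and 4.70 with 1 of 3 probe sets above the cut. MYLK, the myosin light chain kinase gene, was at 4.83 ± 0.02 and OXTR, the oxytocin receptor gene, at 4.28 ± 0.02. ACTG2, CNN1 and LMOD1, further smooth muscle genes, had means of 2.26, 1.99 and 2.29 and were not above the cut.

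Luminal progenitor genes fell into a bright and a background part with none between them. Of 12 measured, 6 lay above the cut, and the same 6 lay in the top 25%. Beside KRT15, listed here too, FOLR1, which encodes a folate receptor, had 11.77, 11.28 and 11.40 (11.48 ± 0.26), although its other probe set had a mean of 1.40. ALDH1A3, a retinaldehyde dehydrogenase gene, had 9.69, 10.00 and 9.85 (9.85 ± 0.15), and its other probe set was at 1.75. SLPI, which encodes a secreted protease inhibitor (8.74 ± 0.14), and the epithelial transcription factor genes ELF3 (8.72 ± 0.06) and EHF (7.35 ± 0.06) completed the bright part. KIT, the stem cell factor receptor gene, was at 1.70, ELF5, an alveolar transcription factor gene, at 1.68, and PROM1, which encodes CD133, at 1.30, and all 3 lay in the background.

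Of 27 measured mature luminal genes, 16 lay above the cut and 9 in the top 25%, with a median percentile of 55.6, under that of all genes. AGR2, which encodes a disulfide isomerase of secretory cells, had 11.03, 10.51 and 10.77 (10.77 ± 0.26), and the epithelial adhesion gene EPCAM had 10.09, 10.09 and 10.07 (10.08 ± 0.01). TBX3, a transcription factor gene of mammary development, was at 8.47 ± 0.08, and the mucin gene MUC1 at 7.44 ± 0.15 with all 3 probe sets above the cut. The hormone receptor genes lay in the background. ESR1, which encodes oestrogen receptor alpha, had 2.88, 2.74 and 3.0 (2.87 ± 0.13, percentile 47.5), with 0 of 9 probe sets above the cut. PGR, the progesterone receptor gene, had 1.39, 1.33 and 1.29 (1.34 ± 0.05, percentile 7.8), with 0 of 2. FOXA1, whose protein opens chromatin for oestrogen receptor, was at 2.15 ± 0.07, with 0 of 2. In contrast, GATA3 of the same list, named here after its value was seen, was in the top 25% at 7.22 ± 0.08 (percentile 84.5).

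Milk protein genes were the dimmest list by median signal, at 1.58. Of 9 measured, 2 lay above the cut, MFGE8, which encodes lactadherin (6.38, 5.68 and 6.02), and XDH, the xanthine dehydrogenase gene (4.10, 3.80 and 3.62), and both are also made outside lactation. The casein genes CSN1S1, CSN2 and CSN3 had means of 1.33, 1.15 and 1.18, and the lactalbumin gene LALBA had 2.09. LPO, the lactoperoxidase gene, and PAEP were at 1.82 and 1.58. None of these 6 lay above the cut.

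Genes used as mesenchymal markers passed both levels at about the shares of all genes. Of 24 measured, 16 lay above the cut and 8 in the top 25%, with a median percentile of 69.9. Over all genes the shares were 60.5% and 35.4%, with a median percentile of 60.5. Beside VIM, the transcription factor gene TWIST1 had 9.59, 9.59 and 9.51 (9.56 ± 0.05, percentile 96.0) at its only probe set. FOXC2, another transcription factor gene, had 8.52, 8.39 and 8.40 (8.44 ± 0.07), and its other probe set was at 3.58. S100A4, which encodes a calcium-binding protein, had 8.38, 7.57 and 8.13 (8.02 ± 0.42), with sample 2 the lowest. The proteoglycan gene DCN was at 7.14 ± 0.14 with 3 of 7 probe sets above the cut, and the cadherin gene CDH11 at 6.51 ± 0.04 with 4 of 4. SNAI1, an inducer of mesenchymal change, and the matrix genes SPARC and COL1A2 of fibroblasts had means of 2.04, 1.55 and 2.08, in the background.

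Markers of other breast cell types lay mostly in the background. Of 13 immune genes, 3 lay above the cut and 0 in the top 25%. The highest were CSF1R, a macrophage receptor gene (3.77, 3.10 and 2.96), PTPRC, which encodes CD45 (3.64, 3.15 and 2.79), and CD79A of B cells (3.17, 2.88 and 3.20). Each of these 3 crossed the cut in some samples and not in others, and the T cell genes CD3D, CD3E and CD2 had means of 2.44, 1.29 and 1.54.

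Of 10 endothelial genes, 4 lay above the cut and 2 in the top 25%. PECAM1, which encodes CD31, had 7.46, 7.58 and 7.59 (7.54 ± 0.07), with 4 of 5 probe sets above the cut, and ROBO4 had 6.02, 6.24 and 6.25. KDR, the main VEGF receptor gene, was at 5.80 ± 0.17 on its only probe set. CDH5, VWF and TEK, further endothelial genes of the list, had means of 2.29, 1.99 and 1.73, in the background. Of 8 adipocyte genes, 3 lay above the cut and 1 in the top 25%: LPL, the lipoprotein lipase gene, had 5.44, 6.08 and 6.62, a range wider than 2-fold. PPARG, a regulator of fat cell formation, was at 4.55 ± 0.03, and ADIPOQ, PLIN1 and LEP, the genes of adiponectin, perilipin and leptin, had means of 1.30, 1.76 and 2.90.

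Of 33 genes restricted to other tissues, 9 lay above the cut and 2 in the top 25%, a median percentile of 39.5. The upper ones were MBP, the myelin basic protein gene (8.10, 8.24 and 8.24, with 6 of 9 probe sets above the cut), and SFTPC, a surfactant gene of the lung (7.41, 6.89 and 7.46, with 2 of 5). CYP3A4, TNP1, GAD1 and MYH7 were between 3.51 and 3.90. The liver genes ALB, APOA1 and APOA2 had means of 1.98, 2.93 and 1.72. All 13 housekeeping genes were in the top 25%, with a median percentile of 99.2.

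**Figure D2:**
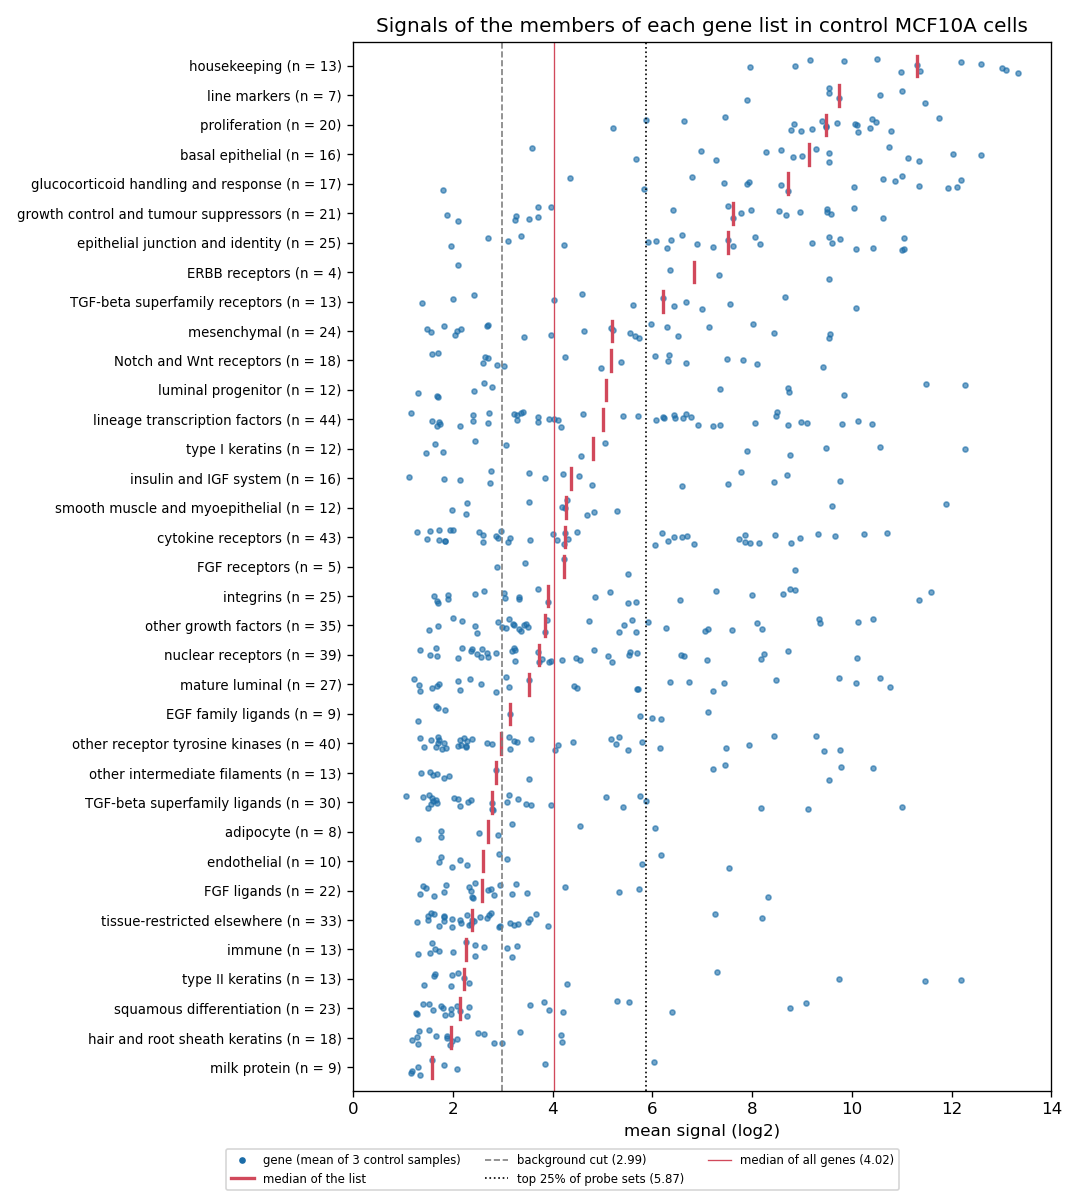
Mean signal over the 3 control samples (log2, horizontal axis) of each measured gene, by list and ordered by list median; points are genes and red bars are list medians. Housekeeping, proliferation and basal epithelial genes had medians of 11.30, 9.49 and 9.14, and milk protein genes and hair keratins had 1.58 and 1.96, against 4.02 for all genes.

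Epithelial junction and identity genes were largely bright. Of 25 measured, 23 lay above the cut and 20 in the top 25%, with a median percentile of 86.3. The catenin genes CTNNA1 (11.09, 11.03 and 11.02) and CTNNB1 (10.45, 10.37 and 10.47), whose proteins tie cadherins to actin, and PERP, a desmosome gene (11.04, 11.04 and 11.03), each stayed within 0.1 across the samples. TJP1, which encodes the tight junction scaffold ZO-1, was at 9.76 ± 0.12. The members not above the cut were PKP1, a plakophilin gene of stratified epithelium (1.96 ± 0.07), and GRHL1, a grainyhead transcription factor gene (2.70 ± 0.17).

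Squamous differentiation genes were mostly in the background. Of 23 measured, 9 lay above the cut and 3 in the top 25%, with a median percentile of 34.4. Beside KRT10 (8.76 ± 0.26), listed here too, KLK5, a kallikrein protease gene of shedding skin, had 9.41, 8.81 and 9.02 (9.08 ± 0.31). SPRR1B, a cornified envelope gene, had 6.15, 6.30 and 6.73 (6.39 ± 0.30). KLK7, a related kallikrein gene, had 6.22, 4.97 and 5.44, more than 2-fold between sample 1 and sample 2. The protease inhibitor gene PI3 was at 5.28 ± 0.41 and SPRR1A at 4.21 ± 0.25. The terminal differentiation genes IVL, TGM1 and TGM3, which encode involucrin and crosslinking transglutaminases, had means of 2.29, 1.85 and 1.97. The median SD of this list was 0.30, against 0.13 over all genes and 0.15 over the genes between percentiles 25 and 50.

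Of 44 lineage transcription factor genes, 34 lay above the cut and 20 in the top 25%, with a median percentile of 68.6. KLF5, a factor of proliferating epithelium, had 10.31, 10.39 and 10.52 (10.40 ± 0.11), and SOX9, a progenitor factor, had 10.15, 10.10 and 10.15 (10.13 ± 0.03). The AP-2 genes TFAP2A (9.80 ± 0.05) and TFAP2C (9.10 ± 0.05) and the SOX4 gene (8.97 ± 0.06) lay above percentile 90 too, with all their probe sets above the cut. TFAP2B, another AP-2 gene, was at 1.75 ± 0.10, in the background with 0 of 3 probe sets above the cut. GATA3, the main luminal factor, named here after its value was seen, was at 7.22, with all 3 probe sets above the cut.

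The ERBB receptors are the family of the EGF receptor, and its members act in pairs. Beside EGFR, the partner gene ERBB2 had 7.63, 7.01 and 7.36 (7.34 ± 0.31, percentile 85.2), and ERBB3, whose product has little kinase activity of its own, had 6.43, 6.25 and 6.36 (6.35 ± 0.09, percentile 78.4). All 3 samples exceeded 5.87 for both genes, although 1 of 3 ERBB2 and 3 of 5 ERBB3 probe sets were not above the cut. ERBB4, a receptor of lactating epithelium, had 2.29, 1.95 and 2.04 (2.10 ± 0.18, percentile 33.2), with 0 of 4 probe sets above the cut.

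Of 9 measured EGF family ligand genes, 5 lay above the cut and 3 in the top 25%. NRG1, which encodes a neuregulin that binds ERBB3 and ERBB4, had 7.37, 6.96 and 7.02 (7.12 ± 0.22, percentile 83.8). The samples lay between 6.96 and 7.37, and 4 of 6 NRG1 probe sets were above the cut. TGFA, which encodes an EGF receptor ligand, had 5.80, 6.40 and 6.31 (6.17 ± 0.32, percentile 77.2), and EREG, the epiregulin gene, had 5.92, 6.18 and 5.90 (6.0 ± 0.15, percentile 76.0). HBEGF, the gene of heparin-binding EGF-like growth factor, had 5.68, 5.80 and 5.77 (5.75 ± 0.06, percentile 74.1), just under the top 25%. The signals of these last 3 ligand genes overlapped the 5.87 level or lay next to it. BTC, the betacellulin gene, had 2.77, 3.46 and 3.21 (3.15 ± 0.35) and crossed the cut between samples. EGF itself, which the medium supplied, had 1.38, 1.27 and 1.21 (1.29 ± 0.08, percentile 5.9), and the neuregulin genes NRG2, NRG3 and NRG4 had means of 1.84, 1.71 and 1.67, all in the background.

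Among the FGF receptor genes the bright value rested on a lone probe set. FGFR2 had 8.88, 8.81 and 8.88 (8.86 ± 0.04, percentile 93.4) at 1 probe set, whereas the other 10 of its 11 probe sets were not above the cut. FGFR1 had 5.63, 5.48 and 5.44 (5.51 ± 0.10, percentile 72.3) and 6 of 7 probe sets above the cut, the others of these 6 having means from 3.27 to 5.34. FGFRL1, a receptor gene without a kinase domain, was at 4.23 ± 0.05 and FGFR4 at 3.45 ± 0.27. FGFR3 had 2.31, 3.0 and 3.32 (2.88 ± 0.52), a 2-fold range with a mean under the cut. Of 22 FGF ligand genes, 7 lay above the cut and 1 in the top 25%. This was FGF2, the basic FGF gene, with 8.46, 8.19 and 8.29 (8.31 ± 0.14) and both probe sets above the cut. FGF13, whose product stays inside the cell, was at 5.73 ± 0.14 and FGF9 at 5.33 ± 0.46, while FGF18, FGF8 and FGF22 were at 4.25, 3.48 and 3.26. FGF1, FGF3 and FGF4 had means of 2.40, 2.39 and 1.63.

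Of 16 measured genes of the insulin and IGF system, 11 lay above the cut and 6 in the top 25%, with a median percentile of 63.5. The adaptor genes IRS2 (9.67, 9.86 and 9.78) and IRS1 (8.52, 8.40 and 8.37) relay the signal of both receptors. The binding protein genes IGFBP3 (8.69 ± 0.18) and IGFBP6 (7.78 ± 0.04) and the scavenging receptor gene IGF2R (7.51 ± 0.20) were also in the top 25%. INSR, the insulin receptor gene, had 6.43, 6.68 and 6.65 (6.59 ± 0.13, percentile 80.1) with 4 of 5 probe sets above the cut. IGF1R, named after its value was seen, was at 4.78 ± 0.11, also with 4 of 5. INS, the insulin gene itself, was at 1.82 ± 0.16, INSRR at 2.74 ± 0.17 and IRS4 at 2.14 ± 0.08, in the background.

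**Figure D3:**
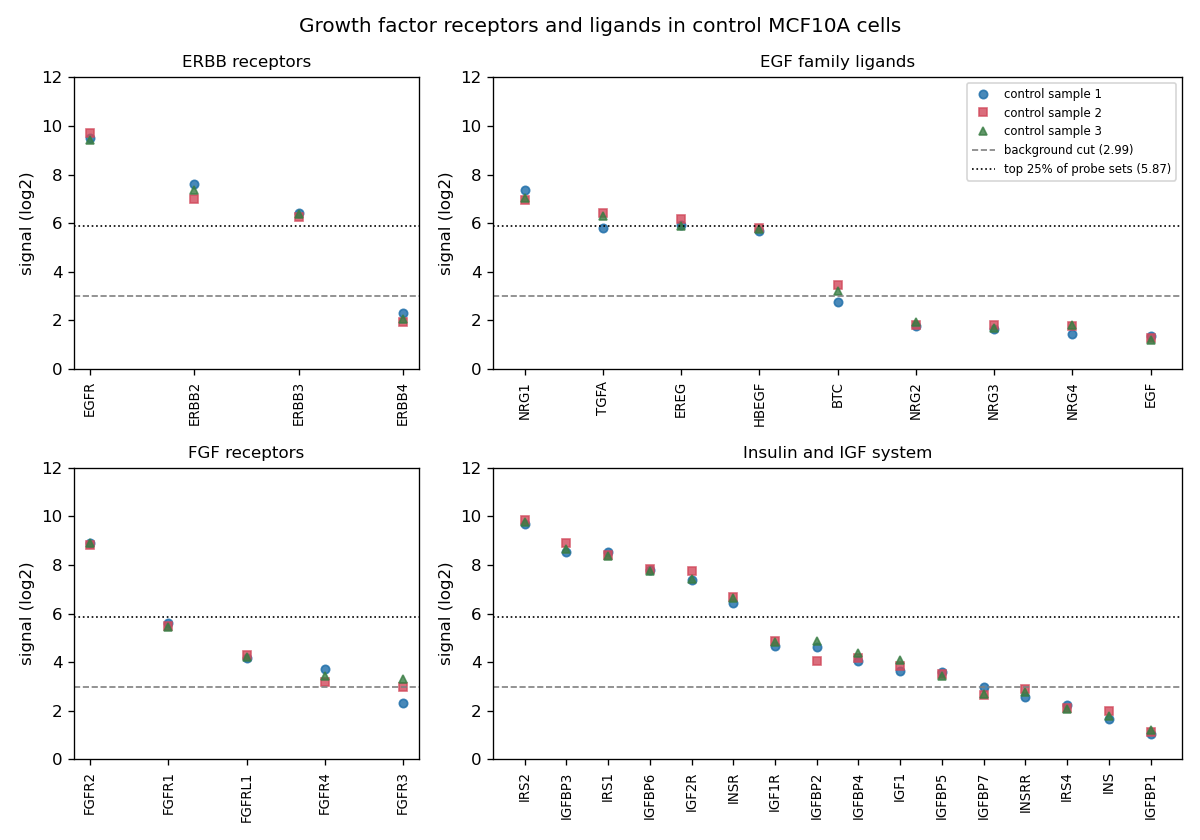
Signal (log2, vertical axis) of ERBB receptor, EGF family ligand, FGF receptor and insulin and IGF system genes in the 3 control samples, with symbols for samples, a dashed line at the background cut of 2.99 and a dotted line at the top 25% level of 5.87. EGFR (9.55), FGFR2 (8.86) and IRS2 (9.77) lead their panels, and ERBB4 (2.10), EGF (1.29) and INS (1.82) lie in the background.

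Of 40 other receptor tyrosine kinase genes, 20 lay above the cut and 7 in the top 25%, with a median percentile of 48.6, under that of all genes. AXL, a receptor for GAS6, had 9.83, 9.73 and 9.72 (9.76 ± 0.06), and MET, the receptor gene for hepatocyte growth factor, had 9.35, 9.65 and 9.31 (9.44 ± 0.19). All probe sets of both genes were above the cut, 2 for AXL and 4 for MET. RYK, a Wnt co-receptor gene, was at 9.29 ± 0.09, and the ephrin receptor genes EPHB4 and EPHA2 were at 7.93 ± 0.15 and 7.47 ± 0.14. ROS1, a further receptor kinase gene, had 8.43, 8.52 and 8.35 (8.43 ± 0.08), with both probe sets above the cut. MERTK, a relative of AXL, and EPHA3 and EPHA5 had means of 1.79, 1.87 and 1.66, in the background.

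Of 35 other growth factor genes, 27 lay above the cut and 11 in the top 25%, with a median percentile of 58.9. The ephrin genes EFNA5 (10.42, 10.39 and 10.46) and EFNB2 (9.29, 9.52 and 9.24) encode membrane-bound ligands of ephrin receptors. HDGF, which encodes a nuclear growth factor, was at 10.12 ± 0.13, and VEGFA, the vascular growth factor gene, had 8.20, 8.19 and 8.20. The matricellular genes CCN2 (9.37 ± 0.09) and CCN1 (8.09 ± 0.07), known targets of YAP, were in the top 25% as well. HGF, the gene of the MET ligand, was at 2.49 ± 0.23 with 0 of 5 probe sets above the cut, and PDGFD was at 1.52. CSF3, the gene of a granulocyte growth factor, had 2.64, 2.60 and 3.72, with sample 3 alone above the cut.

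Of 13 receptor genes of the TGF-beta superfamily, 10 lay above the cut and 7 in the top 25%, with a median percentile of 77.5. TGFBR2, which binds the ligand, had 9.90, 10.18 and 10.21 (10.09 ± 0.17), and TGFBR1, its signalling partner, had 6.91, 7.09 and 6.98 (6.99 ± 0.09). The BMP receptor gene BMPR2 was at 8.65 ± 0.13 with all 6 probe sets above the cut, ACVR1B and ACVR2A, activin receptor genes, were at 7.56 ± 0.07 and 6.67 ± 0.20, and the co-receptor gene TGFBR3 was at 6.44 ± 0.36. ACVRL1, an endothelial receptor gene, ACVR1C and AMHR2 had means of 2.0, 1.37 and 2.43, not above the cut.

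Of 30 ligand genes of the TGF-beta superfamily, 13 lay above the cut and 4 in the top 25%, with a median percentile of 46.2. TGFB2 had 9.0, 9.15 and 9.25 (9.13 ± 0.12) with all 5 probe sets above the cut, and INHBA, which encodes the activin A subunit, had 8.01, 8.34 and 8.18 (8.18 ± 0.17) with all 3. TGFB1 and TGFB3 were at 2.81 ± 0.08 and 2.79 ± 0.01 with 0 of 2 probe sets above the cut each. INHBC, an activin subunit gene of the liver, had 10.96, 10.98 and 11.07 (SD 0.06) at 1 probe set and a mean of 1.46 at the other. BMP8B, GDF15 and INHBB were at 5.87, 5.75 and 5.42, and INHA was at 1.5.

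Of 18 Notch and Wnt receptor genes, 12 lay above the cut and 8 in the top 25%, with a median percentile of 69.8. NOTCH2 had 9.43, 9.44 and 9.37 (9.42 ± 0.04), with all 4 probe sets above the cut. The Frizzled genes FZD1 (8.09 ± 0.13), FZD6 (7.81 ± 0.09), FZD7 (7.49 ± 0.20) and FZD3 (6.67 ± 0.09), which encode Wnt receptors, and the R-spondin receptor gene LGR4 (6.33 ± 0.22) followed. For FZD1 that value came from 1 of 3 probe sets, the others not being above the cut. NOTCH4, an endothelial receptor gene, was at 2.89 ± 0.06, and FZD2 and FZD9 were at 2.61 and 2.70.

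Of 43 cytokine receptor genes, 28 lay above the cut and 19 in the top 25%, with a median percentile of 62.6. Death receptor genes were among its highest: TNFRSF21 had 10.67, 10.66 and 10.80 (10.71 ± 0.08), TNFRSF10B had 10.12, 10.32 and 10.29 (10.25 ± 0.11) and TNFRSF10A had 9.27, 9.36 and 9.32 (9.32 ± 0.04). The last 2 genes encode the receptors of TRAIL. IFNGR1, an interferon gamma receptor gene, was at 9.66 ± 0.08, IL20RB at 8.96 ± 0.18, and IL6ST, the shared chain of interleukin-6 type receptors, at 8.77 ± 0.10. LIFR, which pairs with it, was at 2.60 ± 0.15 with 0 of 5 probe sets above the cut, and the lymphocyte receptor genes IL2RA and IL2RB were at 1.85 and 1.84.

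Of 39 measured nuclear receptor genes, 25 lay above the cut and 7 in the top 25%, with a median percentile of 57.7. VDR, the vitamin D receptor gene, had 9.97, 10.15 and 10.18 (10.10 ± 0.11, percentile 97.3), with all 4 probe sets above the cut. NR3C1, the glucocorticoid receptor gene, had 8.70, 8.76 and 8.67 (8.71 ± 0.04, percentile 92.8), with 4 of 5. These contrast with the background signals of ESR1 and PGR given above. NR2F1 was at 8.23 ± 0.03, the clock repressor gene NR1D2 at 8.18 ± 0.10, PPARD at 7.10 ± 0.05 and RXRA, the shared partner of many receptors, at 6.64 ± 0.22. ESR2, the second oestrogen receptor gene, named after its value was seen, was at 2.69 ± 0.09, with 0 of 6 probe sets above the cut. RORB, NR1I3 and HNF4G had means of 2.11, 2.57 and 2.70.

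The medium contained hydrocortisone, which acts through the glucocorticoid receptor. Of 17 genes of glucocorticoid handling and response, 16 lay above the cut and 14 in the top 25%, with a median percentile of 92.8. FKBP5, a chaperone gene induced by glucocorticoids, had 11.87, 12.01 and 11.88 (11.92 ± 0.08, percentile 99.6) with all 3 probe sets above the cut, and SGK1, an induced kinase gene, had 10.89, 10.79 and 10.92 (10.87 ± 0.07). MT2A, a metallothionein gene, was at 12.19 ± 0.05 and ERRFI1, which encodes an inhibitor of EGFR, at 11.01 ± 0.03. The receptor chaperone genes HSP90AA1 and PTGES3 were at 12.10 ± 0.04 and 11.34 ± 0.12. HSD11B1, the gene of the enzyme that makes cortisol from cortisone, was at 1.81 ± 0.23, in the background. No sample without hydrocortisone was among those described, so these signals do not measure a response.

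Of 25 integrin genes, 18 lay above the cut and 8 in the top 25%, with a median percentile of 59.3. ITGB1, the common beta chain gene, had 11.52, 11.69 and 11.55 (11.59 ± 0.09) with 6 of 7 probe sets above the cut. ITGB4, the partner of ITGA6 in hemidesmosomes, named after its value was seen, had 7.34, 7.23 and 7.26, with 4 of 5. The vitronectin and fibronectin receptor chain genes ITGAV (8.61 ± 0.17), ITGB5 (8.85 ± 0.10) and ITGB8 (8.75 ± 0.05) and ITGAE (7.99 ± 0.07) were also in the top 25%. ITGA1, ITGA4 and ITGA7, chains of collagen receptors, leukocytes and muscle, had means of 1.71, 1.69 and 1.90, in the background.

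Proliferation genes were bright throughout. All 20 lay above the cut and 19 in the top 25%, with a median percentile of 95.8 and a median SD of 0.07. RRM2, a ribonucleotide reductase subunit gene, had 11.71, 11.84 and 11.70 (11.75 ± 0.08), and MKI67, which encodes the antigen Ki-67, had 10.03, 10.29 and 10.03 (10.12 ± 0.15) with all 4 probe sets above the cut. TOP2A, a topoisomerase gene, was at 10.79 ± 0.14, the mitotic kinase gene AURKA at 10.49 ± 0.15, the thymidylate synthase gene TYMS at 10.40 ± 0.07 and the replicative helicase gene MCM4 at 10.37 ± 0.06. In bulk RNA the share of dividing cells and the amount of RNA per cell cannot be told apart.

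Of 21 growth control and tumour suppressor genes, 19 lay above the cut and 13 in the top 25%, with a median percentile of 87.0. CDKN1A, which encodes the cell cycle inhibitor p21, had 10.62, 10.72 and 10.53 (10.63 ± 0.09), and MYC had 10.16, 9.93 and 10.05 (10.05 ± 0.11). The cyclin-dependent kinase genes CDK4 and CDK6 were at 9.51 ± 0.10 and 8.95 ± 0.12, their partner gene CCND3 at 9.58 ± 0.06, and MDM2, which encodes the p53 ubiquitin ligase, at 9.51 ± 0.17 with 9 of 10 probe sets above the cut. CDKN2A, which encodes inhibitors of the same kinases and of MDM2, had 2.04, 2.19 and 2.09 (2.11 ± 0.07, percentile 33.4), with 0 of 3 probe sets above the cut. Its neighbours CDKN2B and MTAP, chosen after their values were seen, were at 3.24 ± 0.04 and 3.53 ± 0.14, with 1 of 2 and 1 of 6 probe sets above the cut. Loss of the region that holds these 3 genes is known for MCF10A, and copy number was not measured here. CCND2, a further cyclin gene, was at 1.89 ± 0.09, in the background.

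Of the 100 genes with the highest means, 33 were ribosomal protein genes with symbols starting RPL or RPS and a digit. Such symbols were held by 82 measured genes, which were not checked to be ribosomal protein genes alone. Of the same 100 genes, 5 encoded heterogeneous nuclear ribonucleoproteins, 4 heat shock proteins, 3 14-3-3 proteins, and 2 keratins, KRT15 and KRT7. With ribosomal protein genes left aside, ACTB (13.33 ± 0.05), TMEFF2 (13.13 ± 0.10), EEF1A1 (13.10 ± 0.02), S100A2 (13.02 ± 0.05) and PPIA (13.01 ± 0.05) came first. S100A2 encodes a calcium-binding protein of basal epithelial cells and was measured by 1 probe set, at 12.96, 13.02 and 13.07. The TMEFF2 value, for a membrane protein gene of brain and prostate, came from 1 probe set with 13.23, 13.16 and 13.02, whereas the lowest of its 3 probe sets was at 1.21 and no other lay above the cut. HUWE1, a ubiquitin ligase gene, was at 12.62 ± 0.02, with a lowest probe set of 3.02. The other places to 20 were held by YBX1, ANXA2, TMSB10, TPT1, HNRNPA2B1, TUBA1C, ND6, AKR1C2, EEF1D, SFN, TUBA1B, MALAT1, NACA and DDIT4, with means from 12.52 to 12.79. MALAT1, a nuclear long noncoding RNA gene, had all 12 probe sets above the cut. AKR1C2 encodes a steroid-reducing enzyme and had 2 of 3 probe sets above the cut.

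The 3 control samples differed little. The median SD of a gene above the cut was 0.12, and it fell from 0.167 for genes between percentiles 50 and 75 to 0.077 for those above percentile 90. Of the 11957 genes above the cut, 92 (0.769%) had a range of 1 or more, a 2-fold difference between samples. Pairs of samples differed by that much in 41, 37 and 42 genes. The sample farthest from the middle value was sample 1 for 26 of the 92, sample 2 for 32 and sample 3 for 34. Sample 3 was the lowest for 24 of its 34, and sample 2 the highest for 21 of its 32.

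In the 3 genes with the widest ranges 1 sample stood apart. DNAI4, an axonemal dynein gene, had 2.43, 2.49 and 6.30, and SRRM5, which encodes a serine and arginine repeat protein, had 2.01, 5.43 and 1.76. ARHGEF39 had 4.03, 6.29 and 3.50. The first of these was high in sample 3 and the next 2 in sample 2. CACNB2, ADGRE2, MIR200CHG, DNAAF9, ZNF669 and VASH1 had means between 3.28 and 4.46 and ranges between 1.59 and 1.94. RPPH1, the RNA component of RNase P, was the one bright gene of the 10, with 8.11, 6.53 and 8.22. Of the genes in the lists, 4 above the cut had such a range: LPL and KLK7, given above, the collagen gene COL3A1 (5.69, 4.51 and 5.39) and AHSG, a liver gene (2.93, 2.73 and 4.04).

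**Figure D4:**
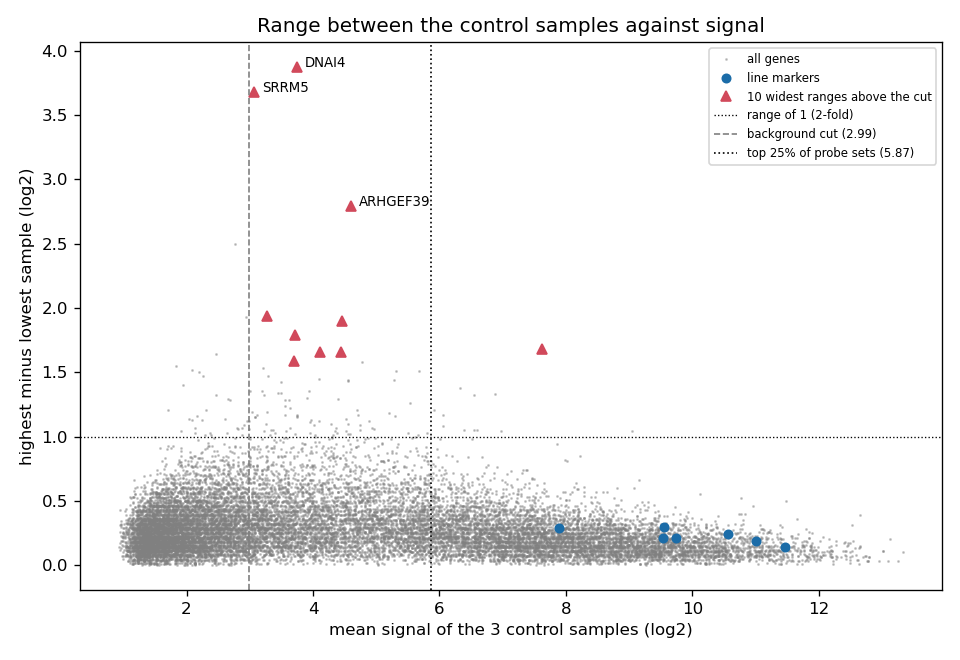
Highest minus lowest of the 3 control samples (log2, vertical axis) against the mean signal (log2, horizontal axis), with all 19775 genes in grey, the 7 measured line markers as blue circles and the 10 widest ranges above the cut as red triangles. The markers lie between 0.14 and 0.30, and DNAI4 (3.87), SRRM5 (3.68) and ARHGEF39 (2.79) stand highest; dotted and dashed lines give the range of 1, the cut and the top 25% level.

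Probe sets of a gene often disagreed. Of 5059 genes with several probe sets whose highest was in the top 25%, 1741 (34.4%) had another that was not above the cut. The median gap between highest and lowest was 1.78 over the 10523 genes with several. Of the genes with several probe sets 75.9% lay above the cut, against 43.0% of the 9252 genes with 1. The shares over all genes mix both kinds. Lists with many genes of several probe sets, such as the basal epithelial list, are thus not compared like for like with those shares. Signals that rest on 1 of several probe sets, such as those of VIM, FGFR2, FOLR1, INHBC and TMEFF2, are given above with the others.

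The CpG content of promoters varied with signal class. For a gene with several annotated starts the count was averaged over its windows, and medians and quartiles are over genes. The 5621 genes not above the cut with a RefSeq promoter had a median of 9.0 CpG dinucleotides per 300-base window, with quartiles of 3.0 and 23.5. The 3862 genes between the cut and the top 25% had a median of 24.0, and the 5820 in the top 25% outside the top 100 had 26.0, with quartiles of 20.0 and 33.0. The 81 genes of the top 100 with a window had a median of 25. The windows of 60 olfactory receptor genes had a median of 2.0. TATAAA was searched on both strands anywhere in the window, and a gene was counted if any of its windows held a match. It was found in 16.8% of genes not above the cut, in 9.1% and 8.0% of the next classes and in 14.8% of the top 100. Over the 15384 measured genes with a window the share was 11.5%. KRT5 and KRT10, with the windows printed above, had few CpG dinucleotides and signals in the top 25%. A match to these letters does not show that they are used.

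**Figure D5:**
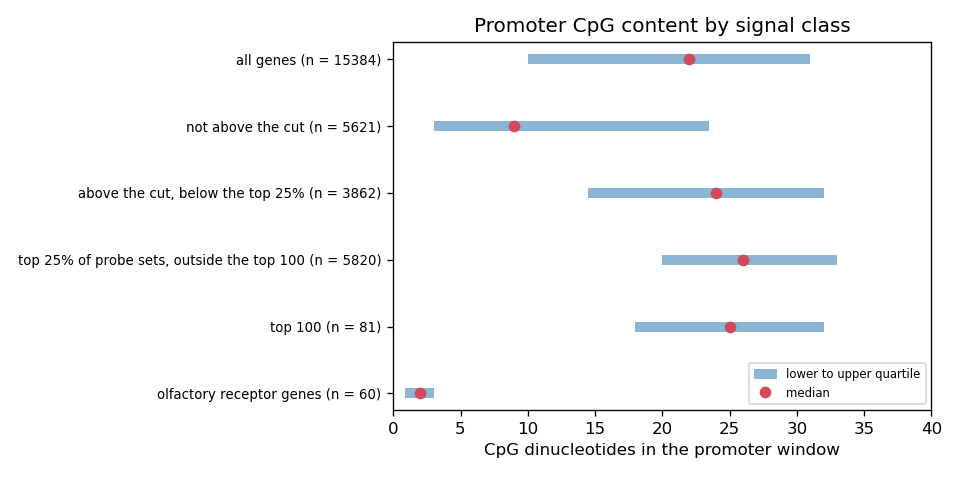
CpG dinucleotides per 300-base promoter window (horizontal axis), averaged over the windows of each gene, for genes grouped by their mean signal in the control samples. Dots are medians and bars run from the lower to the upper quartile over genes. Genes not above the cut have a median of 9.0, those of the top 25% outside the top 100 have 26.0, and olfactory receptor genes have 2.0.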

How the data were processed

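The authors deposited log2 values made with RMA, per the submitters' processing notes, without a version or settings. In its usual form RMA corrects for background, forces the arrays to 1 distribution and summarises each probe set, so a change shared by all genes would not be seen. Depth has no meaning for arrays, and the number of samples, 3, limits the precision. Of 54675 probe sets, 62 controls were set aside. A platform annotation, which can be old, gave 1 symbol to 41091, several to 1801 and none listed to 11721. Symbols were updated through Entrez IDs to RefSeq, where 41037 matched. Probe sets with several symbols or none named no gene.

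From these values the mean, SD, percentile and counts were computed with Python 3.11.15, pandas 2.3.3 and numpy 2.4.6, and plots with matplotlib 3.10.9. The scripts were tested on simulated data. The 35 lists hold 714 genes, 640 of them measured, and the members and lists were chosen with earlier results of these data known. Named were the line markers, the 20 highest genes other than ribosomal proteins (symbols starting RPL, RPS or MRP), up to 6 highest and up to 3 background members of each list, every ERBB and FGF receptor and EGF ligand, the 10 widest ranges, and FRY. Other genes are said to be chosen after their values were seen.

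Alternatives were averaging over all probe sets naming a gene, leaving out _s_at and _x_at probe sets, probe sets chosen over all 6 samples, 3 other cuts, percentiles among genes, requantiled and median-centred values, and leaving out each sample. A cut from protein-coding olfactory receptors and the demand for all 3 samples above the cut were added after seeing the data.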

Additional observations from a re-analysis of the deposited data

How the results depend on the processing

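No paired analysis was possible because no test between groups was made. The number of genes above the cut was 11957 and stayed within 1.5 times of that under every alternative except the top 25% level (7007). Leaving out 1 sample at a time gave 11520 to 12061 genes, and with that, another quantile normalization, median centring or probe sets chosen over all 6 samples the list counts stayed within 1.5 times. Between 33 and 45 genes had a 2-fold range when 1 sample was left out, a range over 2 samples being narrower by construction. The leading limits are disagreeing probe sets and the choice of cut.

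With the probe sets of each gene averaged, counts above the cut became 5 for smooth muscle and myoepithelial genes, 2 for FGF receptors, 1 for immune and 5 for tissue-restricted genes, genes with a 2-fold range became 37, and the percentiles of EGFR, VIM, CDH1 and FRY became 75.5, 71.4, 95.9 and 60.1. Ranked among genes instead of probe sets, all 8 percentiles were lower: KRT5 99.1, CDH1 98.2, KRT18 97.3, KRT8 94.0, EGFR 93.1, VIM 93.1, KRT14 81.6 and FRY 59.1.

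Without _s_at and _x_at probe sets fewer genes were measured. KRT8, KRT18, CDH1 and VIM dropped out, and EGFR moved to percentile 91.5. The counts were 3 of 3 line markers (KRT5, KRT14 and EGFR), 5 of 8 type I keratins, 3 of 10 other intermediate filaments, 9 of 20 mature luminal, 6 of 19 mesenchymal, 15 of 19 junction, 5 of 16 squamous, 6 of 14 insulin and IGF, 4 of 19 FGF ligand, 12 of 33 other receptor tyrosine kinase, 13 of 25 other growth factor, 15 of 32 nuclear receptor, 10 of 13 glucocorticoid, 11 of 17 growth control and 1 of 6 adipocyte genes.

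With the cut at the 99th percentile of olfactory receptors (3.90), counts were 1 for milk protein, 4 for FGF ligands, 16 for other growth factors, 8 for TGF-beta ligands, 0 for immune and 3 for tissue-restricted genes, and 56 genes had a 2-fold range. With the cut from tissue-restricted genes (5.24) they were 5 for type I keratins, 0 for hair keratins, 3 for smooth muscle, 1 for milk protein, 5 for squamous, 22 for lineage factors, 6 for insulin and IGF, 2 for FGF receptors, 3 for FGF ligands, 11 for other receptor tyrosine kinases, 15 for other growth factors, 6 for TGF-beta ligands, 10 for nuclear receptors, 10 for integrins, 0 for immune, 1 for adipocyte and 2 for tissue-restricted genes, and 20 genes had a 2-fold range.

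With the top 25% level as the cut they were 5 for type I keratins, 0 for hair keratins, 2 for smooth muscle, 9 for mature luminal, 1 for milk protein, 8 for mesenchymal, 3 for squamous, 20 for lineage factors, 3 for EGF ligands, 6 for insulin and IGF, 1 for FGF receptors, 1 for FGF ligands, 7 for other receptor tyrosine kinases, 11 for other growth factors, 4 for TGF-beta ligands, 7 for nuclear receptors, 8 for integrins, 2 for endothelial, 0 for immune, 1 for adipocyte and 2 for tissue-restricted genes, and 12 genes had a 2-fold range.

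A cut from protein-coding olfactory receptors (2.69) was passed by 12720 genes (64.3%), with 5 hair keratins and 11 FGF ligands among them. The demand for all 3 samples above the cut gave 0 immune genes. Both were chosen after seeing the data.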
